A study of Mus musculus with 12 samples.

Results

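Among the genes measured in mouse pre-iPSCs after 48 h of treatment, 151 of 20325 (0.743%) moved in opposite directions with ascorbic acid (AA, vitamin C) and with the inhibitor pair 2i. They were chosen from the TPM values (expression per length of transcript, set to an equal sum in each library). For each replicate letter, the difference of log2(TPM + 1) between AA and DMSO had to be above 0 and that between 2i and DMSO below 0 in all 3 letters, with means of at least 0.5 and at most −0.5. The libraries came from 1 experiment with 4 groups of 3 replicates, labelled A, B and C, which makes 12 libraries. The control cells received DMSO, and the others received AA at 50 μg/ml, 2i (PD0325901, a MEK inhibitor, at 1 μM with CHIR99021, a GSK inhibitor, at 3 μM) or AA+2i at the same doses. All groups were pre-iPSCs, a clonal partially reprogrammed line that had been picked as a GFP-silent colony from Nanog-GFP reporter fibroblasts infected with retroviruses for Oct4, Sox2, c-Myc and Klf4, so every group carried those transgenes and 1 line stands for the cell type. The paper also describes fibroblasts from which pre-iPSCs were derived as heterozygous for R26 rtTA, with the 4 factors on 1 cassette. The treatments were given in embryonic stem cell medium with serum and LIF.

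AA is a cofactor of the iron-dependent dioxygenases, which include the Tet enzymes that oxidise 5-methylcytosine and the JmjC histone demethylases. PD0325901 blocks the kinase MEK, so that ERK is not activated by growth factors, and CHIR99021 blocks GSK3, which otherwise marks β-catenin for destruction. Both AA and 2i are added to reprogramming cultures because they favour the pluripotent state, so a gene that AA raises and 2i lowers is one on which the 2 treatments pull apart, and the AA+2i libraries, which did not enter the choice, show its level when both are present. Libraries held between 16173322 and 54392719 expected counts. Libraries DMSO A and AA+2i C stood apart in their relation between level and GC content. At 65% GC of the transcript the smoothed log2 level in DMSO A was −2.40 against the average library and that in AA+2i C 1.79. Results on AA+2i are therefore also given without both. Among the markers of the pre-iPSC state and epithelium, 1 of 6 (Fut4) was under 1 TPM in every library, and their summed level was 103 to 169 TPM in DMSO, 225 to 373 in AA, 117 to 144 in 2i and 318 to 334 in AA+2i. The 9 fibroblast or feeder markers summed to 6.79 to 15.1 TPM in DMSO, 10.6 to 20 in AA, 6.0 to 6.3 in 2i and 7.67 to 10.9 in AA+2i, and Col3a1, Pdgfrb, Postn, Dcn and Lum were under 1 TPM in every library. All 7 primitive endoderm markers, 3 of 6 trophoblast markers (Cdx2, Elf5 and Tpbpa) and 2 of 6 neural markers (Pax6 and Dcx) were also under 1 TPM throughout. The trophoblast list summed to 3.11 to 4.99 TPM in DMSO, 3.9 to 9.15 in AA, 1.89 to 3.32 in 2i and 3.55 to 10.8 in AA+2i. The neural list summed to 71.7 to 90.3, 54.4 to 67.9, 56.7 to 74.4 and 52.8 to 64.2 TPM in these groups, and the primitive endoderm list to 0.17 to 0.73 TPM over all libraries. The part of other cells in the values of the 151 genes was not tested. In bulk RNA, fewer cells that express a gene and less RNA of it per cell cannot be told apart.

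The choice fixes the direction of the changes with AA and with 2i, so these are given as a description. With AA the 151 genes had a median difference of 0.86 ± 0.13 (SD over 3 letters), and with 2i one of −0.90 ± 0.20, beside −0.03 ± 0.12 and −0.16 ± 0.15 over the 13400 genes with enough counts to be tested. The means of single genes ran from 0.50 to 4.80 with AA and from −2.88 to −0.50 with 2i. The rise with AA was the larger change in 67 genes and the fall with 2i in 84. The larger change exceeded the smaller by at least 1 on the log2 scale in 10 and 7 genes, respectively. With medians of 0.86 and −0.90, gaps that large could only be rare, so this count does not show that the 2 changes were equal in size. In 109 of the 151 genes all 3 AA libraries lay above all 3 DMSO libraries (5.36% of tested genes), in 127 all 3 2i libraries lay below them (14.7%), and in 102 both held (1.81%). These were genes of modest expression in the control, with a median level of 5.05 TPM in DMSO, 10.5 in AA, 1.48 in 2i and 3.97 in AA+2i, against 20.4, 20.1, 17.7 and 18.3 TPM over all tested genes. All 151 passed the count filter, 6 of them (Nat3, Klk1b5, Clnk, E330017A01Rik, Nos1 and Dapl1) only because of the AA libraries. At the edge of the choice, 9230105E10Rik and Apcdd1 were the last genes inside the AA threshold (means of 0.50 and 0.51) and Plek2 and Prex1 the first outside it (0.49 and 0.49). For 2i, Lrrc48 and Nat1 were just inside (−0.502 and −0.504) and Serpinb9b and Olfml1 just outside (−0.498 and −0.489).

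**Figure D1:**
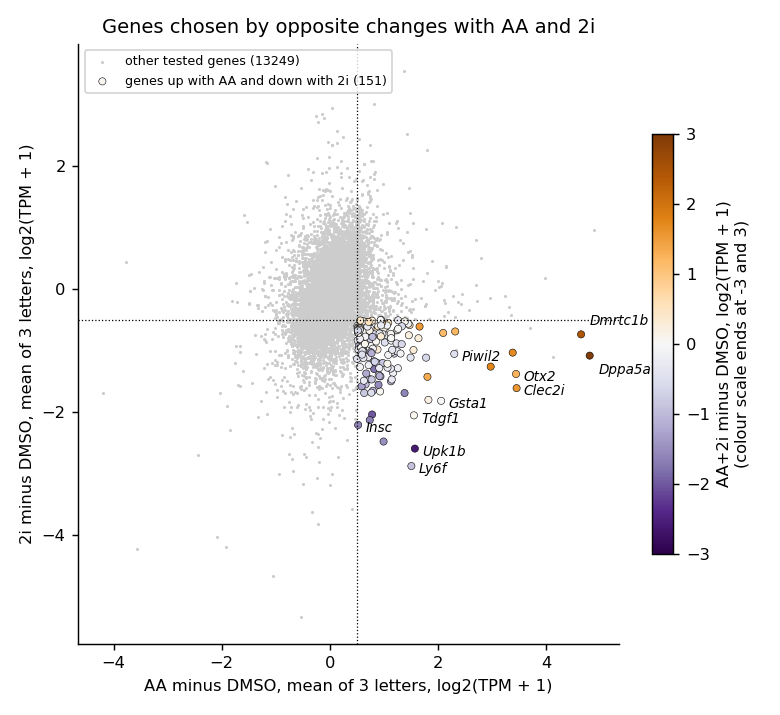
Mean difference from DMSO with AA (x axis) and with 2i (y axis), both on log2(TPM + 1), for each tested gene, with the 151 chosen genes outlined and coloured by their AA+2i minus DMSO difference and dotted lines at the thresholds of 0.5 and −0.5. Dppa5a and Dmrtc1b lie farthest to the right (4.80 and 4.64 with AA) and Ly6f lies lowest among the chosen genes (−2.88 with 2i).

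How far the opposite response recurs was read from libraries that a choice did not use. When the same rule was applied to letters B and C alone it chose 199 genes, of which 125 belong to the 151 genes described above. In letter A, 151 of the 199 (75.9%), not the same 151 genes, were above DMSO with AA and below it with 2i. The share of all tested genes was 23.7%. Genes chosen on A and C numbered 178, of which 153 (86.0%) had the pattern in letter B, beside 17.4%. Genes chosen on A and B numbered 145, of which 138 (95.2%) had it in letter C, beside 19.6%. These last 2 sets shared 130 and 122 genes, respectively, with the 151 described above. The median differences in the letter left out were 0.98 (A), 0.55 (B) and 0.86 (C) with AA and −0.42, −1.11 and −1.09 with 2i. Letter A, which holds the DMSO library that stood apart, had the smallest fall with 2i, and letter B the smallest rise with AA. In the same left-out libraries, AA+2i lay between 2i and AA in 137 of the 199 genes (68.8%, beside 11.6% of tested genes) in letter A, in 159 of 178 (89.3%, beside 27.3%) in letter B and in 130 of 145 (89.7%, beside 19.3%) in letter C. These genes were chosen for a gap between AA and 2i, which leaves more room for a value between them than in most tested genes. The shares are thus not a like comparison, and no conclusion is drawn from them.

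Among 20 gene lists, that of pluripotency genes held the most of the 151. Of 36 tested genes of the pluripotency list, 7 were among the 151 (beside 1.13% of all tested genes), namely Ooep, Tdgf1, Otx2, Eras, Dppa5a, Zfp42 and Klf5. This list was written with earlier results of these libraries known, so its share is not read as a result. Most of the list did not meet the rule, and some genes went the other way. Tcfcp2l1, Klf2 and Tbx3 had mean differences of 1.83, 1.26 and 0.67 with 2i. Nr5a2 and Nr0b1 had −0.50 and −0.47 with AA. Dppa5a, an RNA-binding protein of pluripotent and early embryonic cells, measured 45.1, 35.6 and 78.8 TPM in DMSO A, B and C, 1419, 1232 and 1665 in AA, 26.2, 19.08 and 25.04 in 2i and 511, 763 and 747 in AA+2i. The 4 groups did not overlap, and on a log scale the AA+2i libraries lay nearer to AA than to DMSO. Zfp42 (Rex1), a zinc finger protein used as a marker of naive pluripotency, was at 1.71, 2.29 and 3.10 TPM in DMSO, 12.5, 14.7 and 20.4 in AA, 0.70, 1.16 and 1.38 in 2i and 5.79, 7.34 and 7.01 in AA+2i. Otx2, a homeobox factor of the primed epiblast and the anterior nervous system, was at 3.66, 4.58 and 8.46 TPM in DMSO and 58.6, 55.8 and 91.9 in AA. It was at 1.07, 1.26 and 1.98 TPM in 2i and 12.5, 14.6 and 15.1 in AA+2i, so here too the 4 groups were apart, with AA+2i above DMSO. Zfp42 and Otx2 are known from the naive and the primed state, respectively, and their order of levels over the 4 groups was the same.

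Tdgf1, Ooep and Eras had the same order of AA and 2i, but their AA+2i libraries lay within the range of the control. Tdgf1 (Cripto), the co-receptor of the growth factor Nodal, was at 111, 91.6 and 165 TPM in DMSO, 392, 288 and 381 in AA, 33.4, 25.5 and 25.4 in 2i and 114, 144 and 121 in AA+2i. All AA+2i libraries lay inside the range of the DMSO libraries. Ooep, a subunit of the subcortical maternal complex of the oocyte, was at 29.4, 21.9 and 53.3 TPM in DMSO, 112, 95.2 and 152 in AA, 8.70, 8.62 and 8.58 in 2i and 31.8, 43.7 and 35.9 in AA+2i. Eras, a constitutively active Ras of embryonic stem cells, was at 7.71, 11.8 and 13.7 TPM in DMSO, 15.98, 34.9 and 29.2 in AA, 2.94, 4.91 and 3.11 in 2i and 10.4, 9.54 and 8.82 in AA+2i, again inside the range of DMSO. Klf5, a Krüppel-like factor of the inner cell mass, was the mildest of the group, with 29.2, 31.7 and 39.8 TPM in DMSO, 46.4, 52.4 and 45.6 in AA, 23.6, 18.2 and 22.2 in 2i and 47.0, 27.8 and 27.3 in AA+2i. Its AA+2i libraries overlapped those of both DMSO and AA.

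Among genes with known roles in germ cells, Piwil2, a PIWI protein that binds small RNAs against transposons, was the 1 member of the germline list (16 tested genes). It was at 1.60, 1.79 and 1.04 TPM in DMSO, 13.8, 10.8 and 9.05 in AA, 0.16, 0.18 and 0.21 in 2i and 0.79, 0.92 and 0.59 in AA+2i. Each AA+2i library of Piwil2 was below every DMSO library, and the test of that difference missed the threshold (edgeR, adjusted p = 0.0976). Morc1, an ATPase needed for transposon silencing in male germ cells, was at 10.6, 5.85 and 11.8 TPM in DMSO, 165, 86.8 and 77.3 in AA, 5.34, 3.12 and 3.55 in 2i and 34.96, 39.2 and 23.0 in AA+2i. Dmrtc1b, an X-linked gene related to the Dmrt family, was at 1.80, 0.70 and 5.10 TPM in DMSO, 55.1, 69.8 and 113 in AA, 1.00, 0.35 and 1.33 in 2i and 14.8, 15.6 and 16.9 in AA+2i. For these 2 genes, unlike Piwil2, all AA+2i libraries lay above all DMSO libraries.

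Among the 20 genes with the largest opposite changes (ranked by the smaller of the 2 mean changes), the genes for surface proteins are described first, a grouping by known role that was not tested. Clec2i, a C-type lectin-like ligand of natural killer cell receptors, was at 11.1, 9.21 and 9.86 TPM in DMSO, 174, 90.1 and 109 in AA, 3.99, 2.30 and 1.86 in 2i and 34.0, 42.2 and 22.6 in AA+2i. Ly6f, a small surface protein with a lipid anchor, was at 35.6, 37.4 and 34.7 TPM in DMSO, 128, 87.2 and 99.6 in AA, 5.37, 4.75 and 2.44 in 2i and 16.8, 27.7 and 13.7 in AA+2i. Upk1b, a tetraspanin of the bladder lining, was at 4.68, 6.32 and 8.44 TPM in DMSO, 17.8, 19.3 and 25.9 in AA, 0.11, 0.14 and 0.41 in 2i and 0.11, 0.41 and 0.17 in AA+2i. The 3 genes thus ended in different places with both treatments, Clec2i above DMSO, Ly6f between 2i and DMSO, and Upk1b at the 2i level. Thy1, a surface protein of fibroblasts and T cells, was at 2.64, 5.55 and 7.21 TPM in DMSO, 6.69, 15.1 and 15.99 in AA, 1.23, 1.68 and 0.54 in 2i and 4.58, 4.65 and 2.17 in AA+2i, and its DMSO and AA libraries overlapped. Thy1 is also on the fibroblast list, whose other named markers are given above. Tnfrsf8 (CD30), a receptor of the tumour necrosis factor family, Esam, an endothelial adhesion molecule, and the cortexin Ctxn3 were in the same leading group, with mean differences of 1.26, 1.49 and 1.38 with AA and −1.29, −1.11 and −1.69 with 2i. The DMSO libraries of Tnfrsf8 (2.28, 12.8 and 8.82 TPM) overlapped those of AA and those of 2i.

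The remaining leading genes include secreted proteins and enzymes. Tgfbi, a matrix protein induced by TGF-β, was at 4.11, 8.20 and 8.98 TPM in DMSO, 20.7, 21.6 and 37.5 in AA, 2.58, 2.51 and 2.68 in 2i and 4.85, 4.56 and 3.05 in AA+2i. Igfbp7, which binds insulin-like growth factors, had mean differences of 1.12 with AA and −1.29 with 2i, and Olfm1, a secreted glycoprotein of neural tissue, 1.06 and −1.28. The DMSO libraries of Igfbp7 (3.03, 7.63 and 18.7 TPM) overlapped those of AA and those of 2i. Gsta1, a glutathione S-transferase, headed the ranking with 49.5, 43.2 and 70.5 TPM in DMSO, 226, 179 and 280 in AA, 15.0, 14.5 and 13.8 in 2i and 50.7, 63.0 and 46.7 in AA+2i. Its AA, DMSO and 2i libraries were well apart, and all AA+2i libraries lay inside the DMSO range. Alox15, a lipoxygenase that oxidises arachidonic acid, was at 1.57, 4.22 and 5.04 TPM in DMSO, 19.3, 31.8 and 57.7 in AA, 0.96, 0.70 and 0.77 in 2i and 12.9, 12.2 and 15.7 in AA+2i. Asprv1, a protease of the epidermis, varied widely between letters, with 2.59, 16.2 and 26.9 TPM in DMSO, 15.6, 43.9 and 96.9 in AA, 2.29, 3.23 and 5.37 in 2i and 25.4, 27.6 and 34.7 in AA+2i. The DMSO libraries of Asprv1 overlapped those of AA and those of 2i, and its low DMSO value came from the library DMSO A. The steroid dehydrogenase Hsd17b14 (means of 1.08 and −1.07) and D14Ertd668e (1.13 and −1.50) completed the leading 20, and the AA and DMSO libraries of Hsd17b14 overlapped.

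**Figure D2:**
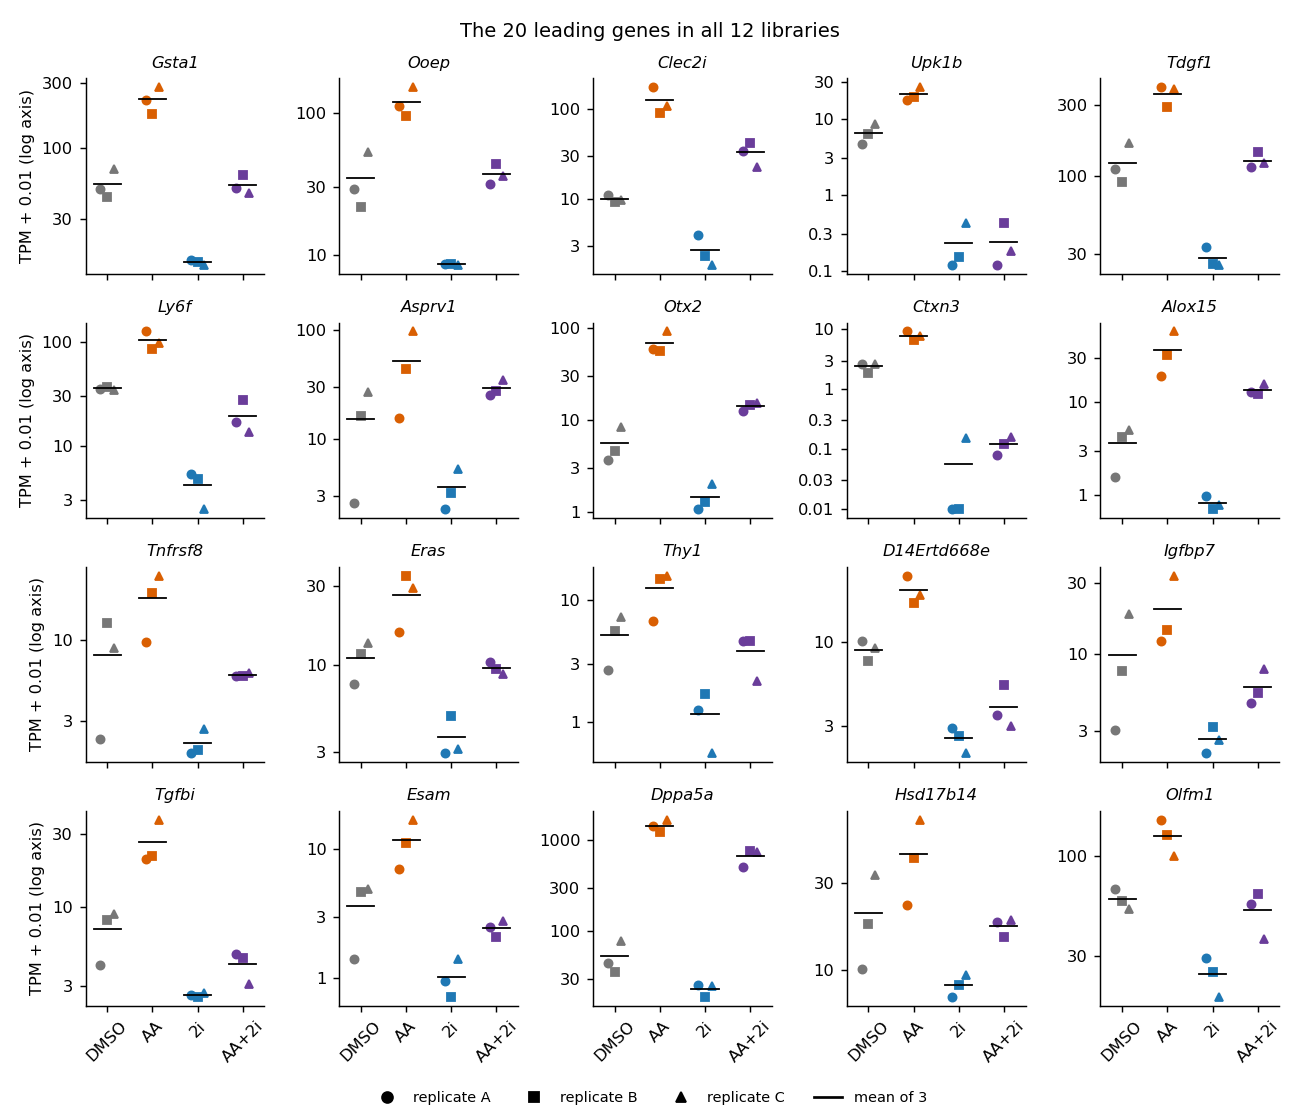
Level of the 20 leading genes in each of the 12 libraries, as TPM + 0.01 on a log axis, with a point for each replicate (circle A, square B, triangle C) and a line at the mean of 3. AA is highest and 2i lowest or tied with AA+2i in each panel, whereas AA+2i ranges from the 2i level (Upk1b, Ctxn3) over the DMSO level (Gsta1, Tdgf1) to above DMSO (Dppa5a, Clec2i, Otx2, Alox15).

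The 5 most abundant of the 151 genes in the control were Cyp2b23, Hmgb3, Ndrg1, Klk1b22 and Slc2a3. Cyp2b23, a cytochrome P450, was at 372, 438 and 388 TPM in DMSO, 846, 630 and 677 in AA, 244, 215 and 222 in 2i and 466, 622 and 522 in AA+2i. The kallikrein Klk1b22 had 155, 154 and 155 TPM in DMSO, 229, 250 and 206 in AA, 68.0, 68.8 and 55.0 in 2i and 149, 166 and 133 in AA+2i. Hmgb3, a chromatin protein of the high mobility group, was at 344, 171 and 273 TPM in DMSO, 428, 330 and 384 in AA, 166, 153 and 110 in 2i and 138, 181 and 107 in AA+2i. Its DMSO library B was closer to the 2i libraries than to the other DMSO libraries. Slc2a3 (GLUT3), a glucose transporter, and Ndrg1, both targets of hypoxia signalling, had mean differences of 1.06 and 0.62 in AA, −1.21 and −1.12 in 2i and 0.08 and −0.42 in AA+2i. Cyp2b23 and Klk1b22 belong to families of close copies, and 52 of the 151 genes, these and Gsta1 included, had counts that were not whole in at least 6 libraries, that is, reads shared out among related transcripts, so the level of a single copy is uncertain. Dppa5a (9 libraries), Ooep (10), Eras (10), Clec2i (8), Tdgf1 (7) and Morc1 (7) are also among these 52, so the same limit holds for their levels.

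The comparison of AA+2i with DMSO asks where these genes stand when both treatments are given. Of the 151 genes, 10 rose and 18 fell with AA+2i (edgeR's quasi-likelihood test, Benjamini-Hochberg adjusted p under 0.05 over all 13400 tested genes), while 123 were not called. That is 6.62% and 11.9% of the 151, beside 3.93% and 4.41% of all tested genes. The DMSO libraries entered both this test and the choice of genes. The AA and 2i libraries, which also chose the genes, entered the test's estimate of the spread. The shares are thus not a like comparison, and no conclusion is drawn from them. The largest rise was that of Dppa5a, at 3.86 ± 0.37 on the log2 scale (SE, adjusted p = 0.000281), followed by Dmrtc1b (2.85 ± 0.68, adjusted p = 0.0271), Alox15 (2.14 ± 0.48, adjusted p = 0.0188), Morc1 (1.94 ± 0.37, adjusted p = 0.00885) and Clec2i (1.89 ± 0.32, adjusted p = 0.00453). Zfp42 (1.72 ± 0.36, adjusted p = 0.0137), Otx2 (1.54 ± 0.39, adjusted p = 0.0359), the anoctamin Ano9 (1.17), the aldehyde oxidase Aox4 (1.05) and Cyp2b23 (0.64) also rose. Each but Aox4 was above DMSO in all 3 letters, and all 10 were below AA in all 3 letters. Gsta1 (0.16 ± 0.26, adjusted p = 0.683), Tdgf1 (0.23 ± 0.26, adjusted p = 0.551), Ooep (0.27 ± 0.35, adjusted p = 0.606) and Eras (0.00 ± 0.35, adjusted p = 0.994) were not called, with estimates smaller than their SE.

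Among the 18 genes that fell, several had AA+2i libraries at the level of the 2i libraries. Upk1b fell by 4.57 ± 0.54 on the log2 scale (adjusted p = 0.000721, edgeR), from DMSO libraries at 4.68 TPM or more to AA+2i libraries at 0.41 TPM or less. Ctxn3 was at 2.62, 1.89 and 2.66 TPM in DMSO, 9.22, 6.66 and 7.61 in AA, 0, 0 and 0.14 in 2i and 0.07, 0.11 and 0.15 in AA+2i, and fell by 4.11 ± 0.60 (adjusted p = 0.00224). The neighbouring genes Fam55b and Fam55d, of the neurexophilin and PC-esterase family, fell by 4.05 ± 0.62 (adjusted p = 0.00291) and 2.40 ± 0.29 (adjusted p = 0.000856). Fam55d was at 9.71, 9.21 and 7.62 TPM in DMSO, 23.9, 14.5 and 11.4 in AA, 1.92, 1.28 and 1.04 in 2i and 1.58, 1.56 and 1.25 in AA+2i, so all AA+2i libraries lay inside the range of the 2i libraries. Lama3, the laminin α3 chain of epithelial basement membranes, was at 5.4, 5.58 and 5.34 TPM in DMSO, 10.8, 8.47 and 10.1 in AA, 0.60, 0.43 and 0.39 in 2i and 1.33, 1.12 and 0.80 in AA+2i. It fell by 2.14 ± 0.21 (adjusted p = 0.000333) and stayed above each 2i library. Nos1 (neuronal nitric oxide synthase), the adhesion protein Opcml, the macrophage mannose receptor Mrc1 and the urea cycle enzyme Otc fell by 3.47, 2.89, 2.53 and 2.41, from means under 3 TPM in the control. Nos1 is 1 of the 6 genes that passed the count filter only because of the AA libraries, and limma on log2(TPM + 1) did not call it (−0.58, adjusted p = 0.205), so 17 falls remain without it. The other falls were those of the spindle orientation gene Insc (2.06), the transcription factors Rfx4 (1.86), Trp63 (1.80) and Tshz2 (1.25), the gene Arhgdib (1.86), the lectin Clec4a1 (1.62), Palmd (1.16), the diacylglycerol kinase Dgki (1.02) and D14Ertd668e (1.00), where each number is the fall on the log2 scale. All 18 were below DMSO in all 3 letters.

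These calls depended on the libraries used. Without replicate B, which holds the deepest DMSO and AA libraries, edgeR called 0 of the 151 in either direction, with 34 at an unadjusted p under 0.05 (51 with all libraries), beside 0.0311% of tested genes up and 0.109% down. Without DMSO A and AA+2i C it called 3 up and 8 down (1.99% and 5.3%, beside 1.32% and 1.58% of tested genes). With a correction for the GC curve of each library 19 rose and 28 fell (12.7% and 18.7%), but the share of all tested genes rose too, to 8.94% and 10.7%.

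Across the 151 genes the median AA+2i level was near that of the control, with a wide spread between genes. The median difference between AA+2i and DMSO was −0.20 ± 0.21 on log2(TPM + 1) (0.04, −0.28 and −0.36 in letters A, B and C), beside −0.17 ± 0.11 over all tested genes, and single genes ran from −2.58 to 3.70. On the counts scaled by edgeR the medians were −0.08 and −0.02, so the choice of scale moves both medians by over 0.1. A mean within 0.5 of DMSO was found in 98 genes, which is not read as a result, since the share over all tested genes was not taken. The AA+2i and DMSO libraries overlapped in TPM in 98 genes (64.9%), beside 67.9% of tested genes. In all 3 letters, 19 genes (12.6%) were above and 52 (34.4%) below DMSO, beside 13.5% and 36.1% of tested genes, and 80 went either way. This split and the SD over letters depend on matching DMSO and AA+2i libraries by letter. Deviations of these same-letter libraries from their group means correlated at 0.17 (A), −0.59 (B) and 0.53 (C), so the matching was not read as a pairing here. With 3 libraries in a group, these correlations cannot show whether the samples were made as pairs. By these signs alone the shares of the 151 genes on either side of DMSO were near those of all genes. The shares called by edgeR were 6.62% up and 11.9% down, beside 3.93% and 4.41% of all tested genes. This is not read as a result, since libraries that chose the genes entered the test. With only AA+2i and DMSO in the model, the shares up were 3.31% beside 2.31%. With the replicate letter as a block they were 12.6% beside 15.3%. The shares down were 7.95% beside 2.17% and 19.9% beside 16.3%, respectively.

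**Figure D3:**
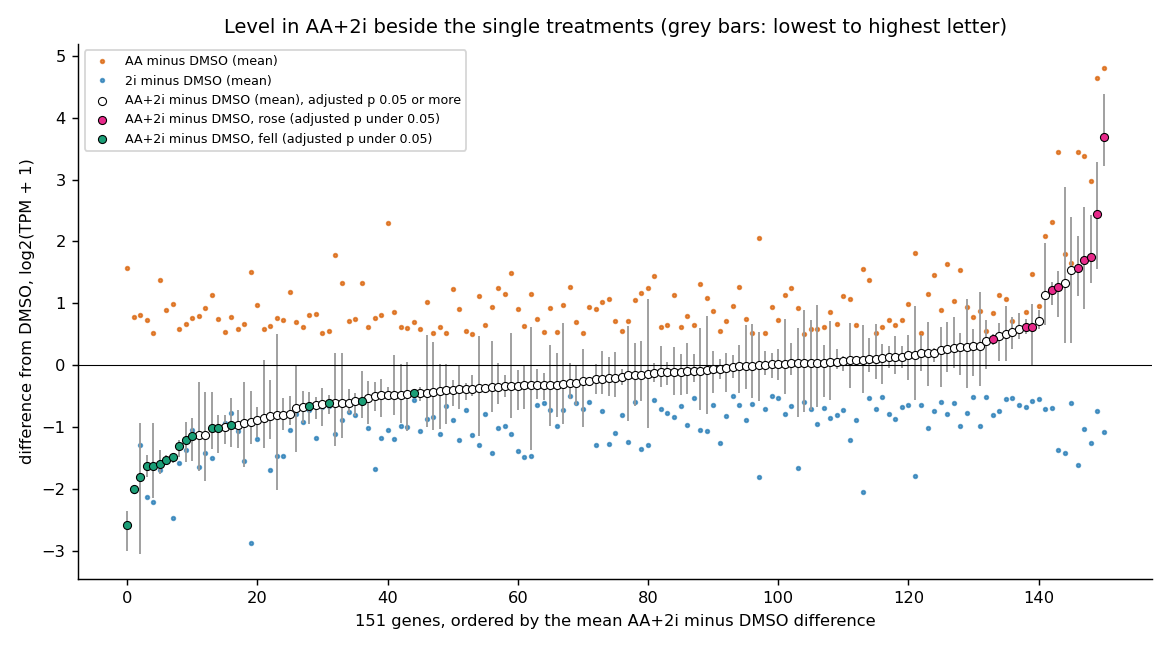
Mean difference from DMSO on log2(TPM + 1) with AA+2i (large circles, grey bars from the lowest to the highest letter), AA (orange) and 2i (blue) for the 151 genes, ordered by the AA+2i value. Filled circles are the 10 genes that rose and the 18 that fell by edgeR, and the AA+2i values run from −2.58 to 3.70, in most genes between the 2 single treatments.

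Set beside the single treatments, AA+2i lay between them in most of the genes, which is given as a description since AA and 2i chose the genes. AA+2i was below AA in all 3 letters in 141 genes (93.4%), beside 29.5% of tested genes, and above 2i in all 3 in 132 (87.4%), beside 21.3%. Both held in 122, for which no share of tested genes was taken. The median difference was −1.16 ± 0.12 from AA (−0.15 over tested genes) and 0.71 ± 0.08 from 2i (−0.02). The 10 exceptions to the first were Asprv1, Lad1, Tcp11, Krt17, Pitpnm3, Tmem139, Zbp1, Ppfia4, Klf5 and Apcdd1. Krt17, a keratin of stressed and basal epithelium, was at 0.16, 1.00 and 1.78 TPM in DMSO, 0.49, 5.62 and 19.5 in AA, 0.06, 0.06 and 0.62 in 2i and 5.08, 1.56 and 9.05 in AA+2i, a spread within groups that let the groups overlap. Tshz2, a zinc finger homeobox factor, was the 1 gene below 2i in all 3 letters, with 2.61, 4.75 and 3.07 TPM in DMSO, 6.12, 6.25 and 7.39 in AA, 1.57, 1.44 and 1.68 in 2i and 1.51, 1.30 and 0.98 in AA+2i. Arhgdib, a gene known from blood cells, was at 48.2, 38.3 and 116 TPM in DMSO, 91.7, 81.8 and 159 in AA, 27.0, 18.7 and 26.4 in 2i and 17.5, 19.6 and 13.0 in AA+2i, so its AA+2i libraries overlapped those of 2i and lay below those of DMSO.

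The 151 genes are 1.13% of the tested genes. The 19 lists other than pluripotency held 14 of them among 484 tested genes (2.89%), with at most 2 in a list. Of the 20 lists, 8 held none of the 151, namely the Nrf2 and redox genes (28 tested), the aryl hydrocarbon receptor targets (8), the ERK feedback and immediate early genes (34), the amino acid stress genes (25), the imprinted genes (30), the trophoblast genes (15), the primitive endoderm genes (11) and the dioxygenases (32). At the share of all tested genes, lists of this length would mostly hold none, so an empty list is not read as a result, and the lists were written with earlier results known. ERK feedback genes are known to respond to the kinase cascade that PD0325901 blocks. By edgeR, 11 of the 34 fell with AA+2i and 0 rose, beside 4.41% and 3.93% of all tested genes. AA+2i also holds AA and CHIR99021, and which of the agents changed these genes was not tested. Of the 36 tested pluripotency genes, 16 rose and 1 fell with AA+2i. Of the 7 that are among the 151, 3 rose (Dppa5a, Zfp42 and Otx2) and 0 fell. Of all tested genes, 3.93% rose and 4.41% fell. Since the lists were written with earlier results of these libraries known, these counts are not read as a result. The Wnt targets (20 tested) held Apcdd1, an inhibitor of Wnt receptors, the TGF-β and BMP genes (33) Tgfbi, the growth factors and receptors (42) Igfbp7, the extracellular matrix (54) Lama3 and the glutathione genes (35) Gsta1. Hypoxia and glycolysis genes (32) held Slc2a3 and Ndrg1, interferon genes (32) the GTPase Gbp2 and the immunoproteasome subunit Psmb9, epithelial genes (32) Krt17 and the splicing regulator Esrp1, fibroblast genes (22) Thy1 and neural genes (15) the oligodendrocyte factor Olig2. Psmb9 was at 1.43, 3.04 and 3.60 TPM in DMSO, 3.53, 8.90 and 12.9 in AA, 1.38, 0.73 and 1.87 in 2i and 2.04, 1.97 and 3.78 in AA+2i, so AA overlapped DMSO. Esrp1 was at 30.1, 28.2 and 34.9 TPM in DMSO, 69.9, 50.6 and 56.2 in AA, 24.04, 19.6 and 17.1 in 2i and 42.3, 43.6 and 27.1 in AA+2i, with the AA and 2i groups apart from DMSO.

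The promoters of the 151 genes were poorer than most in CpG, the dinucleotide that Tet enzymes and DNA methyltransferases act on, whose density marks promoters that are mostly unmethylated in all cells. A promoter sequence of 300 bases (250 before and 50 after the start site, RefSeq, build GRCm38.p6) was matched for 102 of the 151 genes. Their CpG ratio (observed over expected from the base content) had a median of 0.463 (quartiles 0.199 and 0.721), beside 0.755 (0.546 and 0.906) in 10709 tested genes. A ratio of at least 0.6 was found in 34 (33.3%), beside 70.5% of tested genes. Genes up with AA but not down with 2i had it in 50.0%, genes down with 2i but not up with AA in 70.3%, and genes with the reverse pattern, down with AA and up with 2i, in 56.8% of 37. Tested genes of a similar control level (2.31 to 12.3 TPM in DMSO, between the quartiles of the 151) had it in 64.4%. The difference was not put to a test. The transcripts had a median GC content of 50.1% in the 151 genes (150 with a value) and 50.3% in tested genes, while it was 54.9% in the genes up with AA alone and 45.4% in those down with 2i alone, and a median length of 2532 bases, beside 3016. The following 150 bases before the start site show both ends of the range among the leading genes, in the gene's direction, with each CpG in capitals.

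Ly6f promoter, GRCm38.p6 chr15:75268271-75268420, plus strand: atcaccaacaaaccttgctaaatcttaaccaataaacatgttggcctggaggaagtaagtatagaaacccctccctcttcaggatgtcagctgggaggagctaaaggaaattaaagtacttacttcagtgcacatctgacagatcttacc
Gsta1 promoter, GRCm38.p6 chr9:78230519-78230668, plus strand: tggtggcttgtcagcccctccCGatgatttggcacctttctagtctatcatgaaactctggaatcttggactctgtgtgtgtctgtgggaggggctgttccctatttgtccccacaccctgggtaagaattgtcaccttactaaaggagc
Clec2i promoter, GRCm38.p6 chr6:128887437-128887586, plus strand: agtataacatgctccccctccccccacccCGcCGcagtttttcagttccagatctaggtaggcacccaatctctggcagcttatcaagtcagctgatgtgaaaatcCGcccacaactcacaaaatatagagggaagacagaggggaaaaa
Ooep promoter, GRCm38.p6 chr9:78378589-78378738, minus strand: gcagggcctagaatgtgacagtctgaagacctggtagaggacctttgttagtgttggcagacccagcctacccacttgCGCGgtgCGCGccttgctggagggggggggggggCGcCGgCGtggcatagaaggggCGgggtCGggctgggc
Olfm1 promoter, GRCm38.p6 chr2:28192943-28193092, plus strand: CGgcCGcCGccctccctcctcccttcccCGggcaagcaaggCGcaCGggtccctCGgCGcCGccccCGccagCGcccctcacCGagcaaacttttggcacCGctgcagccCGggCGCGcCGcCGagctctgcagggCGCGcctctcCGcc

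The Ly6f window of 300 bases had 0 CpG, those of Gsta1 and Clec2i had 2 and 4 (ratios of 0.104 and 0.256), that of Ooep 15 (0.602) and that of Olfm1 32 (0.886). CpG-poor and CpG-rich promoters were thus both found among the leading genes. Short motifs, searched on both strands of the 300 bases, were counted beside their share in tested genes. TGACTCA or its reverse complement, the AP-1 motif of factors downstream of ERK, was in 7 promoters (6.86%, beside 3.66% of tested genes), and CTTTGA, the core of the TCF motif bound with β-catenin, in 15 (14.7%, beside 11.9%). CCGGAAG, an ETS motif common in CpG-rich promoters, was in 7 (6.86%, beside 17.5%), TATAAA in 7 (6.86%, beside 4.42%), GTTGCC, a part of the X-box motif of RFX factors, in 18 (17.6%, beside 12.8%), and CACGTG in 11 (10.8%, beside 9.96%). A match is a run of letters, not a bound site.

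**Figure D4:**
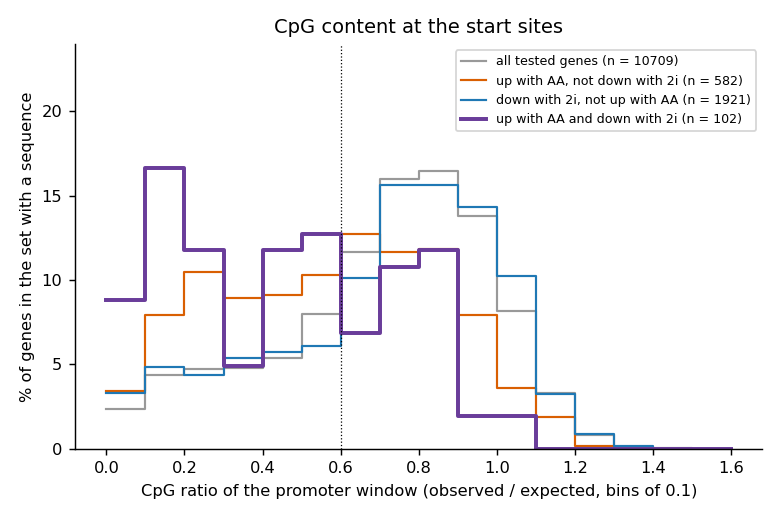
Share of genes (y axis, %) by the CpG ratio of the 300-base promoter window (x axis, bins of 0.1, dotted line at 0.6) for the 102 genes up with AA and down with 2i (thick line), all tested genes and the genes with only one of the changes. The thick line is highest below 0.2 and has 33.3% of its genes at 0.6 or more, against 70.5% for all tested genes.

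Some of the 151 genes were neighbours, which is given as a description, since the loci were picked after the values were seen and the number of neighbours was not compared with that in other gene sets. In the mm9 annotation, 22 of them lay within 100 kb of another, in 13 pairs, and chromosome 9 held 16 of the 151 (10.6%, beside 5.63% of tested genes). Dppa5a (chr9:78214859-78215984, minus strand) and Ooep (chr9:78223916-78226532, minus strand) are 7.9 kb apart, and Gsta1 (chr9:78078463-78090491, plus strand) starts before both on the map, at −137.5 kb from the start of Dppa5a. Of 12 tested genes in this stretch, these 3 were chosen. Gm10639, a glutathione S-transferase-like gene between Gsta1 and Dppa5a, had mean differences of 1.49 ± 0.10 with AA and −0.75 ± 0.81 with 2i and failed the rule in a letter. Its reads were shared with related genes in all 12 libraries. The chosen genes Gsta1, Dppa5a and Ooep had shared reads in 12, 9 and 10 libraries. Ddx43, on the other side of Ooep, had 0.22 ± 0.47 with AA and −1.39 ± 0.28 with 2i, and Gsta4 0.29 ± 0.27 and −0.67 ± 0.55, so neither reached the AA threshold. Mto1 and Eef1a1, further on, had −0.31 ± 0.22 and 0.01 ± 0.40 with AA.

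**Figure D5:**
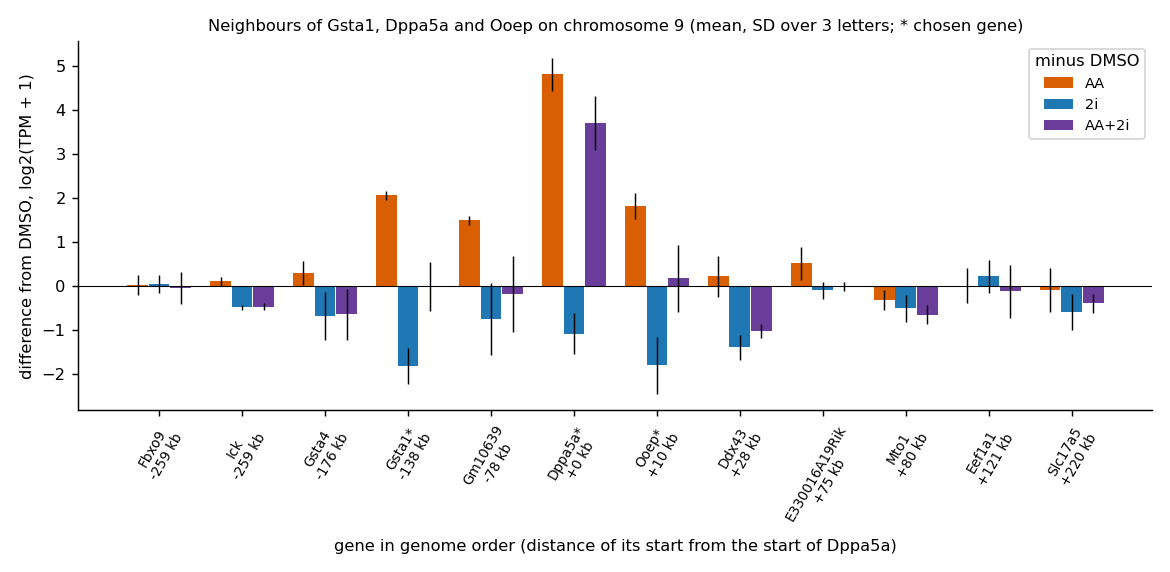
Mean difference from DMSO on log2(TPM + 1) with AA, 2i and AA+2i (bars, with SD over 3 letters) for the 12 tested genes around Dppa5a in genome order, with the distance of each start from that of Dppa5a in kb. The tall AA bars are those of Gsta1, Gm10639, Dppa5a and Ooep (2.06, 1.49, 4.80 and 1.82), and Dppa5a alone keeps a high AA+2i bar (3.70).

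The kallikrein cluster of chromosome 7, a family of secreted serine proteases, held 5 of the 151 among 13 tested genes (beside 1.13% of all tested genes), namely Klk11, Klk1b27, Klk1b21, Klk1b22 and Klk1b5. Klk1b22 (chr7:51368043-51372292) was the most abundant of the 5, and Klk11, at the other end of the cluster, was at 1.29, 4.18 and 4.31 TPM in DMSO, 3.53, 9.77 and 18.5 in AA, 0.78, 0.75 and 1.29 in 2i and 2.48, 2.14 and 3.81 in AA+2i. Klk1, the most abundant gene of the cluster (880 TPM in DMSO, 1057 in AA, 153 in 2i and 230.8 in AA+2i as means), had a mean difference of −2.46 ± 0.90 with 2i on log2(TPM + 1) and of 0.32 ± 0.32 with AA, under the threshold. The Klk1b genes are close copies, and Klk1b27, Klk1b21, Klk1b22 and Klk1b5 had shared reads in 9 to 11 of the 12 libraries, while Klk11 had them in 2. Klk1b5 also passed the count filter only because of the AA libraries. The 5 genes are therefore not separate counts, and their share beside that of all tested genes is not read as a result. Other neighbours were Nos2 and Lgals9 (2.7 kb apart), Fam55b and Fam55d (8.0 kb), Chi3l1 and Adora1 (9.0 kb) and the arylamine N-acetyltransferases Nat1 and Nat3 (31.8 kb), and Nat3 was listed at 0 TPM in all 3 2i libraries. Nos2, the inducible nitric oxide synthase, had mean differences of 0.79 in AA, −1.65 in 2i and −1.14 in AA+2i, and Lgals9, a galectin, 0.96, −0.54 and 0.72, so their AA+2i differences had opposite signs, and neither was called.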

How the data were processed

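RNA of 12 libraries was sequenced, 3 biological replicates (A, B and C) for each of DMSO, AA, 2i and AA+2i. The authors trimmed and filtered reads, aligned them with Bowtie to the RefSeq genes of mm9 and estimated expression with RSEM (1.2.4 in the submitters' processing notes). The deposited expected count of each gene is a raw estimate that can be fractional. The deposited TPM are scaled within each library, and the deposited FPKM by length and depth. FPKM served only to recompute 1 malformed TPM cell as 40.6. The authors' filters and alignment thus shape every value, and shared reads are divided among related genes.

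The 151 genes and the gene lists were chosen with earlier results of these data known. The difference of AA+2i from DMSO was tested on rounded expected counts with edgeR 4.0.16 in R 4.3.3 (RLE factors, quasi-likelihood test, 1 model of 4 groups with 8 residual degrees of freedom, at least 10 counts in at least 3 libraries, Benjamini-Hochberg adjustment over 13400 genes, called under 0.05). The SE is the size of the log2 fold change over the square root of F. Replicates are separate samples by their labels, and p-values measure the spread between them within 1 line. Replicate letters were used to choose the genes but not as a block in the test. Changes with AA and 2i, and AA+2i against them, were not tested, since they chose the genes.

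Genes named are the 20 with the largest opposite change, at most 5 per list, the 8 largest rises and falls called with AA+2i, the genes at the thresholds and the 5 highest in DMSO. Others were named after their values were seen: the other members called with AA+2i, the exceptions in counts, and the neighbours of members. Positions are from GENCODE in mm9, promoters from RefSeq in GRCm38.p6 (first start site of a gene, 16166 of 20325 genes matched). The test was tried on simulated counts. DESeq2 1.42.0 and limma 3.58.1 were among the alternatives. Figures used Python 3.11.15 with matplotlib 3.10.9. Some of the genes that met the rule are not reported by name here.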

Additional observations from a re-analysis of the deposited data

How the results depend on the processing

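The number of genes chosen by the rule was 151, and it was 300 with log2(TPM + 0.1), which includes all 151, 58 with log2(TPM + 5), and 27 with a threshold of 1. It ran from 145 to 199 when a replicate letter was left out. TPM scaled by the median of ratios gave 133 genes (126 shared with the 151), a GC correction 190 (134 shared), and differences of group means without the letters (no replicate block) 178. With AA+2i against DMSO, 10 genes rose and 18 fell. With at least 10 counts in all libraries 9 rose and 9 fell of 115 tested (7.83% each, beside 2.62% and 3.75% of tested genes). With only AA+2i and DMSO in the model 5 rose and 12 fell (3.31% and 7.95%, beside 2.31% and 2.17%). The GC correction gave 19 up and 28 down. The replicate block gave 19 up and 30 down (12.6% and 19.9%, beside 15.3% and 16.3% of tested genes, so that the rises were then below the share of all genes), and the block with the GC correction 28 and 38 (18.7% and 25.3%, beside 17.2% and 19%). Nothing in the labels beyond the letter pairs the samples. Deviations of same-letter libraries from their group means correlated across genes in A, B and C at 0.89, 0.69 and 0.61 for DMSO and AA, 0.79, 0.18 and 0.51 for DMSO and 2i and 0.84, 0.24 and 0.79 for AA and 2i. In the comparison tested, the deviations of DMSO and AA+2i libraries from their group means correlated across genes at 0.17 (A), −0.59 (B) and 0.53 (C), with DMSO A closer to AA+2i B (0.69), so the letters were not read as pairs there. Leaving out a letter gave 0 to 5 up and 0 to 12 down, with 0 in both directions without B (edgeR, 34 at an unadjusted p under 0.05). The shares were 3.33% and 8.0% without A (beside 2.29% and 2.57% of tested genes). They were 2.0% and 3.33% without C (beside 1.29% and 0.94%). Without the libraries DMSO A and AA+2i C, an alternative chosen after seeing the data, 3 rose and 8 fell. DESeq2 gave 14 and 23 (9.27% and 15.2%, beside 6.71% and 7.31% of tested genes), limma 9 and 18 (5.96% and 11.9%, beside 3.01% and 5.3%). The cause of these differences was not tested, beyond fewer genes or libraries where the alternative itself removes them. The 16 named changes kept their direction under each alternative that tested them (8 of them were not tested with at least 10 counts in all libraries). All 16 lost their call without B, 9 without C, 9 without DMSO A and AA+2i C, 5 without A, 3 in the model of 2 groups and 1 with limma. The median difference of the 151 genes between AA+2i and DMSO ran from −0.32 to −0.12 over the letters left out, and was −0.28 with a pseudocount of 0.1 and −0.06 with scaled TPM. Genes under a few TPM rest on few reads, and their ratios are uncertain.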

Other observations

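The following members were chosen after their values were seen, and no theme was tested. Several encode proteins known from cilia or sperm flagella. Enkur was at 2.72, 2.11 and 2.36 TPM in DMSO, 8.56, 5.24 and 7.42 in AA, 1.23, 0.82 and 0.53 in 2i and 1.34, 1.64 and 1.72 in AA+2i. Iqcg was at 2.61, 1.62 and 2.26 TPM in DMSO, 7.25, 4.73 and 5.86 in AA, 1.07, 0.78 and 0.60 in 2i and 1.60, 3.39 and 1.82 in AA+2i. In both genes AA lay above and 2i below every DMSO library. Mean differences with AA and 2i were 1.15 and −0.99 for the kinesin Kif27, 0.94 and −0.59 for Ttc25, 0.95 and −0.50 for Lrrc48, 0.65 and −0.53 for Dyx1c1 and 0.52 and −0.71 for Efhb. Rfx4, of the RFX family of factors that bind X-box motifs, was at 2.72, 2.37 and 2.74 TPM in DMSO, 7.69, 4.92 and 3.50 in AA, 0.97, 0.75 and 0.56 in 2i and 0.81, 0.87 and 0.27 in AA+2i. All these genes were under 11 TPM in every library.

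Apoc1, a lipoprotein component, was at 2.22, 1.51 and 5.93 TPM in DMSO, 7.58, 17.1 and 27.1 in AA, 1.00, 1.45 and 1.60 in 2i and 4.07, 8.89 and 10.8 in AA+2i, with no call against DMSO.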
